A study of Mus musculus with 31 samples.

Results

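Il6 and Il10 transcripts were followed in D10.G4.1 cells, a mouse T helper 2 (Th2) clone maintained as an established line, after addition of neuromedin U (NmU) or phosphate-buffered saline (PBS). NmU is a neuropeptide that acts through G protein-coupled receptors. The members are every probe set that the array's annotation pairs with the single symbol Il6 or Il10, plus the manufacturer's control probe set for mouse Il10. The rule found 3 probe sets among the 12488 of the array, namely 102218_at for Il6, 100319_at for Il10 and the Il10 control probe set AFFX-MurIL10_at. They stand for 2 of the 8252 genes named by a single symbol. All 3 passed the filter on dim probe sets, which 7931 probe sets passed.

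The series held 31 arrays in 8 groups. NmU-treated and PBS-treated cells were sampled after 0.8, 3, 6 and 12 h, with 4 arrays in each group except NmU at 3 h, which had 3. All groups share the same single clone, and the PBS arrays were taken at every time, so each NmU group has its own vehicle control. The labels number the replicates without saying whether they came from separate cultures, so every p-value measures only how far these arrays scatter, and that scatter could be technical. Precision is limited by how many arrays each group has.

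Interleukin 6 (IL-6) is a secreted cytokine that signals through its own receptor chain and the shared chain gp130 to the kinases Jak1, Jak2 and Tyk2 and the transcription factor Stat3. Interleukin 10 (IL-10) is an anti-inflammatory cytokine that binds Il10ra and Il10rb and also signals through Jak1, Tyk2 and Stat3. Th2 cells are a known source of both, beside interleukins 4, 5 and 13, and IL-6 and IL-10 act on B cells, T cells and macrophages in allergic inflammation.

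The proximal promoter of Il6 is shown because factors known to bind it were measured on the same arrays. RefSeq's promoter table for GRCm38.p6 gives these 250 bases before the start of Il6, on the plus strand at chr5:30012864-30013113. Capitals mark motif matches, which are an AP-1 element, a core of the cyclic AMP response element (CRE), a C/EBP element, an NF-kB element and NFAT cores.
Il6 promoter: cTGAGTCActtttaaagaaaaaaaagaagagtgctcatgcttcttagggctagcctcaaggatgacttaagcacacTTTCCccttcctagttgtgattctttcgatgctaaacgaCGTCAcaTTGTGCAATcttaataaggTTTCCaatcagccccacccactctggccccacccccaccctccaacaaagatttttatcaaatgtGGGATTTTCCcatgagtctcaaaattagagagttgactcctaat

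Both strands were searched, with N standing for any base. The AP-1 motif TGAGTCA matched once, 249 to 243 bases before the start, and 4.46% of 32851 promoters of the same length held it. The CRE core CGTCA matched 135 to 131 bases before the start and was present in 17.8% of promoters. The C/EBP motif TTNNGNAAT matched 128 to 120 bases before the start and was present in 10.2%. These matches describe the letters in this window only. The NF-kB motif matched 44 to 35 bases before the start and was present in 7.25% of promoters. The NFAT core GGAAA matched 3 times, and 55.6% of promoters held it. The NFAT match nearest the start overlaps the NF-kB match.

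A few facts of the whole series bear on these values. Several T cell transcripts were well detected, with signals of 500.9 to 1355 for Cd3e and 230.4 to 334.2 for Cd4 over the 31 arrays. Thy1, Cd5 and Cd2 stayed at or below 22.1, 20.9 and 31.9. Gata3, the master regulator of Th2 cells, ran between 1815.1 and 2842, while the Th2 marker Ccr4 did not exceed 9.8. Macrophages and mast cells are other known sources of IL-6 and IL-10. The macrophage markers Lyz2, Adgre1, Itgam, Marco and Mrc1 and the mast cell markers Kit, Fcer1a, Ms4a2 and Mcpt4 did not exceed 16.3 on any array. The other measured markers of these lists were detected, with signals of 54.5 to 123.3 for Cd14, 16.9 to 45.5 for Csf1r, 15.8 to 49.3 for Fcgr1 and 25.0 to 56.2 for Cd68, and in the mast cell list 23.7 to 66.9 for Tpsb2 and 4.7 to 39.5 for Cpa3. The array labelled NmU 6 h replicate 4 stood apart on the early genes, where its Egr1 signal reached 1586.7 and the 3 others of that group gave 147.6 to 170.2. PBS 3 h replicate 4 had the lowest mean correlation with its own group of all arrays (r = 0.956). The 3 and 6 h differences of Il6 and Il10, and each list count that changed, are therefore also given without these arrays, an alternative chosen after the data were seen.

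Il6 signal was higher with NmU at every time, by 2.64-fold at 0.8 h, 2.55-fold at 3 h, 2.13-fold at 6 h and 1.58-fold at 12 h. Il10 was higher by 2.56-fold, 2.54-fold, 1.69-fold and 1.66-fold at the same times. At no time did an NmU array fall within the range of the PBS arrays for any of the 3 probe sets. Of all probe sets tested, 2.57%, 8.13%, 6.56% and 3.68% had every NmU array above every PBS array at 0.8, 3, 6 and 12 h. The folds at 0.8 and 3 h were not told apart for any of the 3 probe sets (limma adjusted p for the change between them 0.933 for Il6, 0.978 for Il10 and 0.918 for the control probe set).

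**Figure D1:**
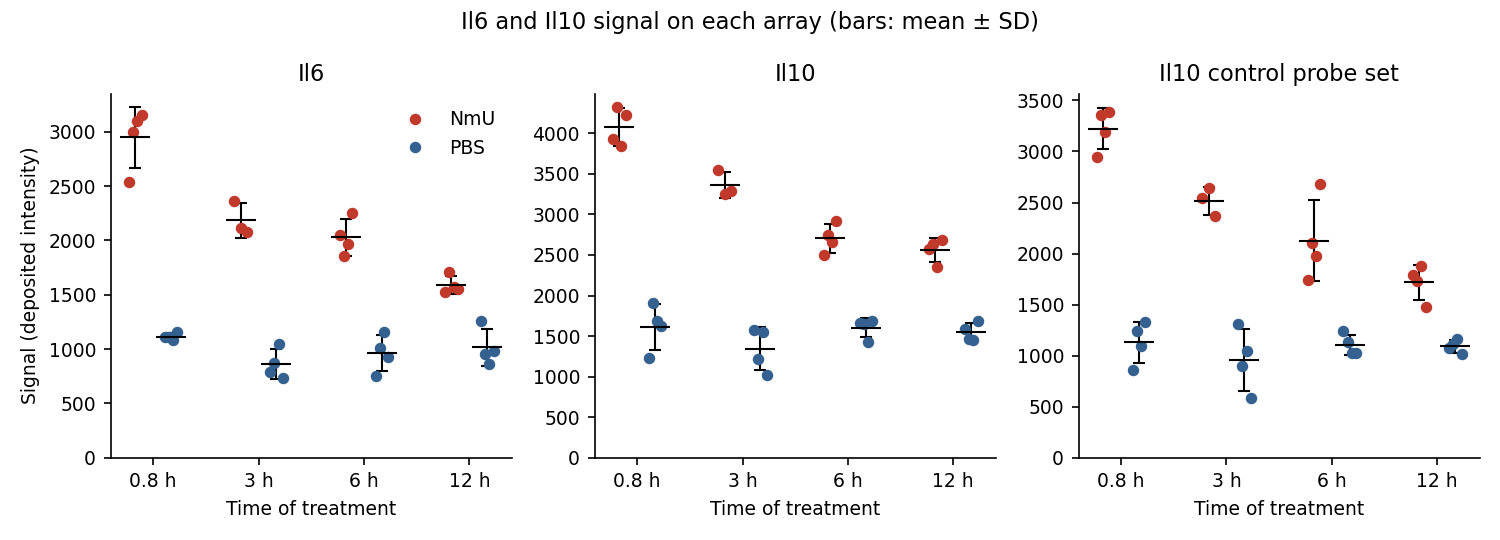
Signal (deposited intensity, linear axis from 0) of Il6, Il10 and the Il10 control probe set on each of the 31 arrays at 0.8, 3, 6 and 12 h; red points are NmU arrays, blue points PBS arrays, and bars give the mean ± SD of each group. For every probe set and time the lowest NmU point lies above the highest PBS point, and the NmU points lie lower at 12 h than at 0.8 h.

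At 0.8 h, Il6 gave signals of 2539.8, 2998.7, 3096.8 and 3154.7 on the NmU arrays, against 1111.9, 1107.3, 1080.2 and 1155.7 on the PBS arrays. The means were 2948 ± 279 with NmU and 1114 ± 31.3 with PBS (SD, n = 4 each). The PBS arrays lay close together and the lowest NmU array was 2.20 times the highest PBS array. On the log2 scale the difference was 1.40 ± 0.12 (SE), a 2.64-fold change with a 95% confidence interval of 2.22 to 3.14, and it passed the test (limma, Benjamini-Hochberg adjusted p = 1.81e-08). In this comparison 0.794% of all probe sets tested were called higher at an adjusted p under 0.05, and the fold of Il6 had rank 25 among the 7931.

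At 3 h the Il6 signals were 2367.1, 2109.9 and 2076.2 with NmU, against 787.0, 877.0, 1049.4 and 736.7 with PBS. The groups stayed apart, with means of 2184 ± 159 (SD, n = 3) with NmU and 862.5 ± 137 (SD, n = 4) with PBS. On the log2 scale they differed by 1.35 ± 0.13 (SE, limma adjusted p = 6.51e-08), at a time when 4.45% of probe sets were called higher. Without PBS 3 h replicate 4 it was 1.28 (adjusted p = 4.8e-07).

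At 6 h the Il6 signals were 2049.8, 1855.1, 1963.1 and 2255.6 with NmU, against 755.7, 1010.0, 1160.3 and 926.6 with PBS. NmU replicate 4 was the highest of its group, and the NmU arrays remained above all PBS arrays. They differed by a log2 value of 1.09 ± 0.12 (SE, limma adjusted p = 1.78e-06) and 1.04 without NmU 6 h replicate 4 (adjusted p = 1.03e-05). At this time 2.86% of probe sets were called higher.

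At 12 h the Il6 signals were 1527.6, 1710.1, 1574.3 and 1551.9 with NmU, against 1255.0, 958.3, 866.1 and 983.9 with PBS. The gap had narrowed, and the lowest NmU array was 1.22 times the highest PBS array. The log2 difference was 0.66 ± 0.12 (SE), a 1.58-fold change with a 95% confidence interval of 1.33 to 1.88 (limma adjusted p = 0.00282), where 0.857% of probe sets were called higher. With only the 12 h arrays in the fit the same difference had an adjusted p of 0.0619.

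Il10 at 0.8 h gave 3926.1, 4324.5, 3837.7 and 4221.0 with NmU, against 1224.2, 1910.6, 1685.0 and 1629.2 with PBS. The means were 4077 ± 232 with NmU and 1612 ± 286 with PBS (SD, n = 4 each). PBS replicate 1 was the lowest of its group, and all NmU arrays exceeded every PBS array at least 2.01 times. The log2 difference was 1.36 ± 0.12 (SE), a 2.56-fold change with a 95% confidence interval of 2.15 to 3.04 (limma adjusted p = 2.23e-08).

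At 3 h Il10 gave 3543.2, 3245.7 and 3286.4 with NmU, against 1573.4, 1221.2, 1551.0 and 1026.7 with PBS. NmU and PBS differed by a log2 value of 1.34 ± 0.13 (SE, limma adjusted p = 5.68e-08), and 1.22 without PBS 3 h replicate 4, the lowest PBS array (adjusted p = 1.66e-07). Mean signals with NmU and with PBS were both lower than at 0.8 h, and the fold over PBS was nearly the same.

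At 6 h Il10 gave 2494.3, 2743.3, 2657.6 and 2919.1 with NmU, against 1655.3, 1651.3, 1429.9 and 1682.7 with PBS. Here the log2 difference was 0.75 ± 0.12 (SE, limma adjusted p = 0.00026), and 0.72 without NmU 6 h replicate 4 (adjusted p = 0.00103). The fold change was 1.69, with a 95% confidence interval of 1.42 to 2.00.

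At 12 h Il10 gave 2574.4, 2630.8, 2350.3 and 2683.3 with NmU, against 1586.1, 1464.4, 1451.7 and 1682.9 with PBS. The lowest NmU array was 1.40 times the highest PBS array. The log2 difference was 0.73 ± 0.12 (SE), a 1.66-fold change with a 95% confidence interval of 1.40 to 1.97 (limma adjusted p = 0.000726).

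The Il10 control probe set is a separate probe set for the same transcript. At 0.8 h it gave 2947.5, 3360.5, 3195.2 and 3389.1 with NmU, against 860.1, 1241.5, 1091.1 and 1325.7 with PBS. At 12 h it gave 1785.7, 1727.6, 1879.8 and 1479.9 with NmU, against 1078.5, 1116.7, 1167.7 and 1016.4 with PBS. It showed the same order of groups as 100319_at at all 4 times. Its log2 differences were 1.53 ± 0.17, 1.45 ± 0.18, 0.93 ± 0.17 and 0.65 ± 0.17 (SE) from 0.8 to 12 h. The first 3 passed the test (limma adjusted p = 7.49e-07, 3.26e-06 and 0.000957) and the difference at 12 h did not (adjusted p = 0.0555), although its groups did not overlap. Its 3 h difference was 1.23 without PBS 3 h replicate 4 (adjusted p = 4.08e-06) and its 6 h difference 0.81 without NmU 6 h replicate 4 (adjusted p = 0.0051). Left out singly, any of PBS 0.8 h replicate 1, PBS 3 h replicate 1, PBS 3 h replicate 4 and NmU 6 h replicate 4 brought the 12 h difference past the threshold, with adjusted p between 0.00686 and 0.0414.

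An exact two-sided permutation test of each probe set at each time, which assumes no model of the spread, gave the smallest p that the design allows in all comparisons. That p was 0.0286 with 4 arrays against 4 and 0.0571 with 3 against 4, so the 3 h comparison cannot pass 0.05 by this test. Groups that do not overlap always give the smallest p, so this test adds nothing to the separation given above.

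**Figure D2:**
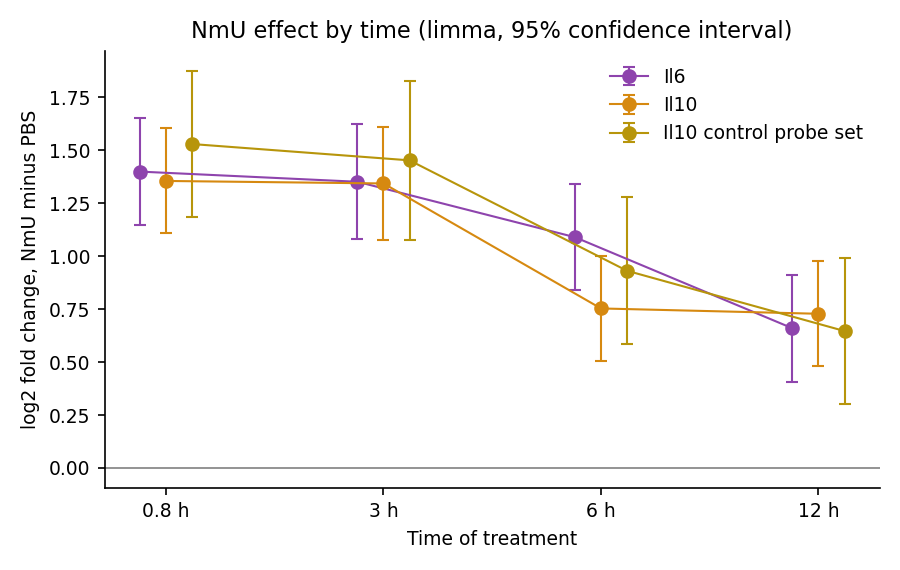
NmU minus PBS difference (log2 fold change, limma) of Il6, Il10 and the Il10 control probe set at 0.8, 3, 6 and 12 h; points are estimates and bars 95% confidence intervals. All estimates lie above 0, between 1.34 and 1.53 at 0.8 and 3 h and between 0.65 and 0.73 at 12 h.

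The levels of both transcripts declined over time in NmU-treated cells. With NmU, Il6 changed over time (limma F test over the differences from 0.8 h, adjusted p = 0.000119), as did Il10 (adjusted p = 0.000797) and the Il10 control probe set (adjusted p = 0.00284), where 11.5% of all probe sets passed the same test. Il6 with NmU was lower by 0.43 on the log2 scale at 3 h than at 0.8 h (adjusted p = 0.0412), by 0.54 at 6 h (adjusted p = 0.0107) and by 0.89 at 12 h (adjusted p = 2.76e-05). Of all probe sets, 5.52%, 1.78% and 1.48% were called lower in these comparisons. Il10 with NmU differed from 0.8 h by a log2 value of -0.28 at 3 h, which did not pass (adjusted p = 0.206), and was lower by 0.59 at 6 h (adjusted p = 0.00386) and by 0.67 at 12 h (adjusted p = 0.000911). No difference between neighbouring later times passed the adjusted threshold. With NmU, Il6 differed by a log2 value of -0.11 between 6 and 3 h (adjusted p = 0.779) and by -0.35 between 12 and 6 h (unadjusted p = 0.00826, adjusted p = 0.224), and the 12 h arrays all lay below the 6 h arrays. Il10 differed by -0.31 between 6 and 3 h (unadjusted p = 0.0231, adjusted p = 0.232), where the arrays did not overlap either, and by -0.08 between 12 and 6 h (adjusted p = 0.856). How many of all probe sets separate in this way between times with NmU was not counted, so nothing is read from it.

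With PBS neither transcript changed past the threshold. The F tests over time gave adjusted p of 0.528 for Il6, 0.617 for Il10 and 0.772 for the Il10 control probe set, in a comparison that 0.0126% of probe sets passed. Mean Il6 signals with PBS ran from 862.5 at 3 h to 1114 at 0.8 h, and mean Il10 signals from 1343 at 3 h to 1612 at 0.8 h. The 3 h PBS group was the lowest for all 3 probe sets. The difference between 3 and 0.8 h with PBS was -0.38 for Il6 on the log2 scale (unadjusted p = 0.00441, adjusted p = 0.392).

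The size of the NmU effect itself differed between times for Il6 (limma F test over the changes of the effect, adjusted p = 0.0308) and for Il10 (adjusted p = 0.0215), a test that 4.03% of probe sets passed. It did not pass for the Il10 control probe set (adjusted p = 0.0606). Without PBS 3 h replicate 4 and NmU 6 h replicate 4, the adjusted p of this test was 0.0274 for Il6, 0.0128 for Il10 and 0.00678 for the control probe set. For Il6 the log2 effect was smaller at 12 h than at 0.8 h by 0.74 ± 0.17 (SE, adjusted p = 0.032), where 0.517% of probe sets were called lower. For Il10 the corresponding change was -0.63 ± 0.17 (SE) and did not pass (adjusted p = 0.0899). The Il6 change is close to the threshold. It had an adjusted p of 0.0512 with arrays scaled to a common median. It was also lost, with adjusted p between 0.0534 and 0.089, when any of 11 arrays was left out, which were replicates 2, 3 and 4 of NmU at 0.8 h, replicates 1, 3 and 4 of NmU at 12 h, replicates 1, 2 and 3 of PBS at 0.8 h and replicates 1 and 4 of PBS at 12 h. The Il6 F test was lost without NmU 0.8 h replicate 4, NmU 3 h replicate 1, PBS 12 h replicate 1 or NmU 12 h replicates 1, 3 or 4, with adjusted p between 0.0541 and 0.078. The Il10 change passed without PBS 0.8 h replicate 2 (adjusted p = 0.042) or PBS 3 h replicate 4 (adjusted p = 0.0333).

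In units of signal, the excess of NmU over PBS for Il6 was 1834 at 0.8 h, and 72.1% of that remained at 3 h, 58.2% at 6 h and 31.4% at 12 h. For Il10 the excess was 2465 at 0.8 h, with 81.8% remaining at 3 h, 44.6% at 6 h and 41.1% at 12 h. The Il10 control probe set had 29.8% of its excess left at 12 h. Both Il10 probe sets had a positive excess at every time, and the share left at 12 h was larger for 100319_at. On arrays of pooled RNA, fewer expressing cells and less RNA per cell cannot be told apart.

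Whether Il6 and Il10 differed in fold was tested within arrays, as the log2 ratio of the Il6 signal to the Il10 signal. The effect on Il6 minus the effect on Il10 was 0.04 at 0.8 h, 0.01 at 3 h, 0.34 at 6 h and -0.07 at 12 h. An exact two-sided permutation test adjusted over the 4 times cannot go below 0.114 for a difference at 1 time alone, so it could not have passed such a difference, and it gave 0.9143, 0.9143, 0.4571 and 0.9143. In the fit over all probe sets relative to Il10, the 95% confidence intervals were -0.28 to 0.37 at 0.8 h, -0.34 to 0.36 at 3 h, 0.01 to 0.66 at 6 h and -0.39 to 0.26 at 12 h. The 6 h difference lay at the threshold, with an adjusted p of 0.0553 in the fit relative to Il10 and 0.0485 in the fit relative to Il6, and with the Il10 control probe set in place of 100319_at the 6 h value was 0.16.

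Deviations of the Il10 probe sets from their group means correlated with r = 0.718 over the 31 arrays. The ratio of the control probe set to 100319_at had a median of 0.751 on NmU arrays and 0.694 on PBS arrays. At 12 h these probe sets ranked the arrays in opposite order, in the NmU group and in the PBS group. NmU 12 h replicate 3 was lowest on 100319_at (2350.3) and highest on the control probe set (1879.8). PBS 12 h replicate 3 was likewise lowest on 100319_at (1451.7) and highest on the control probe set (1167.7). The deviations of Il6 and Il10 from their group means correlated less, with r = 0.193, so arrays high in Il6 for their group were not regularly high in Il10. Among the 15 NmU arrays the levels of Il6 and Il10, which both decline with time, had r = 0.906, and among the 16 PBS arrays r = 0.356. The points share array, scaling and time, and these values are descriptions. PBS 3 h replicate 4 was the lowest of its group on all 3 probe sets and NmU 6 h replicate 4 the highest of its group on all 3.

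**Figure D3:**
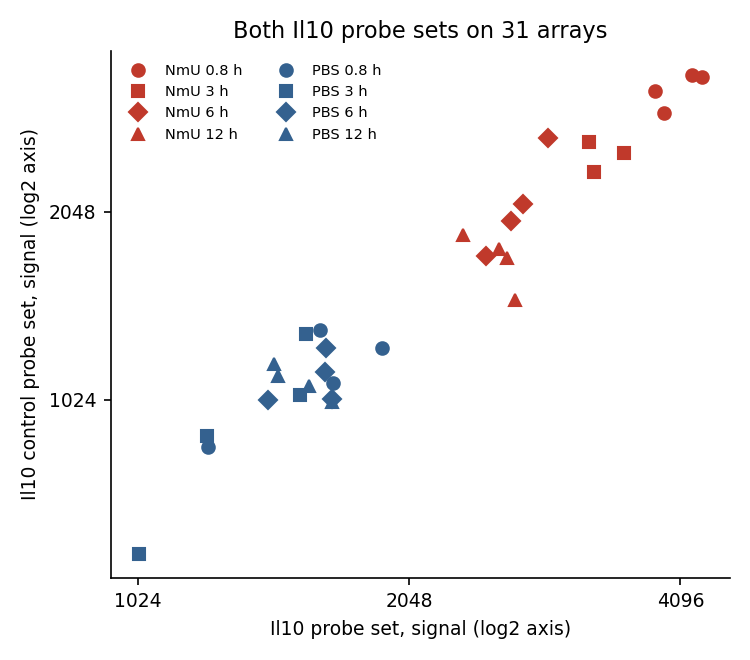
Signal of the Il10 probe set (horizontal) against the Il10 control probe set (vertical), both on log2 axes, for the 31 arrays; colour gives the treatment (NmU red, PBS blue) and shape the time. NmU and PBS arrays form separate clouds on both axes, and within the NmU cloud the 0.8 h arrays are highest.

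Among all 7931 probe sets tested, 9 (0.113%) were called higher at all 4 times. They include 102218_at for Il6 and 100319_at for Il10. The other 7 were probe sets for Il4 and Il13, the chemokine Ccl4, the inhibitory receptor Lilr4b, the tetrahydrobiopterin enzyme Gch1 and the small GTPase Gem, with Il4 represented by 2.

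The cytokines of T helper cells give a frame for the time course. Of 13 on the list, 8 were tested, and 3, 5, 6 and 3 of the 8 rose at 0.8, 3, 6 and 12 h and none fell, where 0.794%, 4.45%, 2.86% and 0.857% of all probe sets were called higher. The count at 12 h was 5 after quantile normalization and 4 after scaling to a common median. The median log2 difference of the 8 was 0.61, 1.59, 1.20 and 0.94 at these times, against -0.04, -0.03, 0.02 and -0.02 over all probe sets tested. Il2, Ifng, Csf2 and Il17a did not pass the filter, with highest signals of 1.7, 6.0, 10.7 and 17.9. Tgfb1 passed the threshold at 6 h alone, where it rose (log2 difference 0.53, adjusted p = 0.0291), a call that was lost with arrays scaled to a common median (adjusted p = 0.111). Il3 rose at 3 and 6 h (log2 difference 2.10 and 1.91, adjusted p = 0.00212 and 0.00509). At 0.8 and 12 h its log2 differences of 1.15 and 1.5 did not pass (adjusted p = 0.348 and 0.0733), and passed without PBS 3 h replicate 4 and NmU 6 h replicate 4 (adjusted p = 0.0233 and 0.00161).

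Il4, the defining Th2 cytokine, rose by 1.82, 2.70, 1.89 and 1.21 on the log2 scale from 0.8 to 12 h, with its highest value at 3 h. Relative to Il10 on the same array, the Il4 effect grew by 0.89 between 0.8 and 3 h (adjusted p = 0.0091), and relative to Il6 by 0.92 (adjusted p = 0.0499). Il13, which drives mucus production and airway reactivity, rose by 1.08, 1.75, 1.12 and 0.85. Its growth between 0.8 and 3 h relative to Il10 was 0.68 and did not pass (adjusted p = 0.172). These ratio fits were added after the data were seen, and all share the same Il6 or Il10 values.

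Il5, the eosinophil growth factor, ran the opposite course. Its log2 difference was 0.10 at 0.8 h (adjusted p = 0.99) and it rose by 1.74, 2.52 and 2.83 at 3, 6 and 12 h (adjusted p = 3.48e-05, 1.09e-07 and 2.65e-08). Relative to Il10 the Il5 effect was larger at 12 h than at 0.8 h by 3.35 (adjusted p = 4.48e-06), and relative to Il6 by 3.47 (adjusted p = 6.2e-06). The effect on Tnf, an inflammatory cytokine, declined more than either. It rose by 2.29, 1.44 and 1.27 at 0.8, 3 and 6 h, and at 12 h its log2 difference was 0.55 (adjusted p = 0.318). Its effect at 12 h against 0.8 h changed relative to Il6 by -1.0 (adjusted p = 0.0246) and relative to Il10 by -1.11 (adjusted p = 0.0188).

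**Figure D4:**
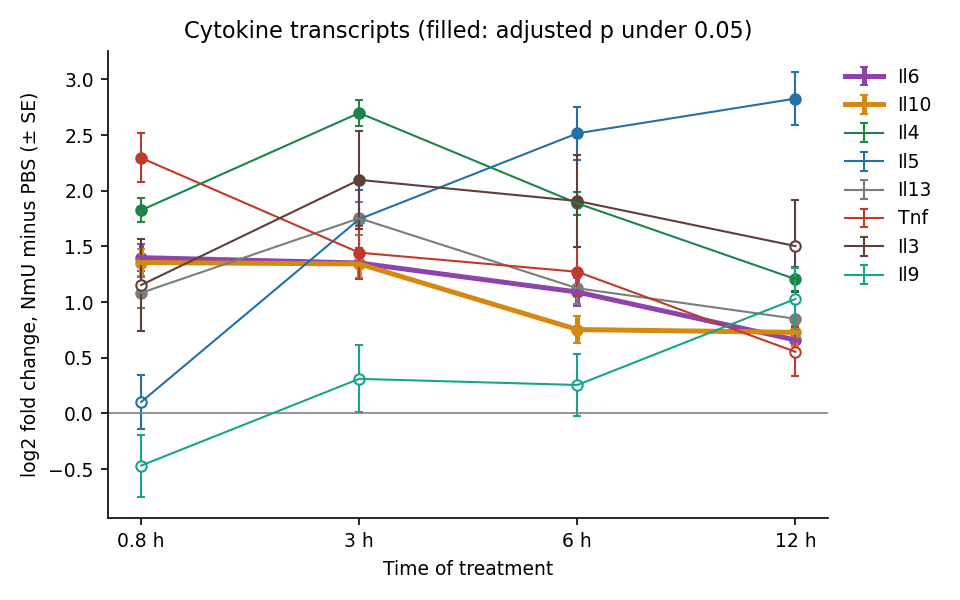
NmU minus PBS difference (log2 fold change, points ± SE) of Il6, Il10 and 6 other T helper cytokines at 0.8, 3, 6 and 12 h; filled points passed an adjusted p under 0.05 and open points did not. At 0.8 h Il6 and Il10 lie below Tnf (2.29) and above Il5 (0.10), at 3 and 6 h they lie below both, and at 12 h they lie far below Il5 (2.83).

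The families and receptors were sparsely measured. Of the IL-6 family cytokines beside Il6, only Il11 and Ctf1 had a named probe set. Il11 did not exceed 5.5, and Ctf1 was not called at any time. Of 13 receptor chains of both families 8 had a named probe set and 5 were tested. None of the 5 was called at any of the 4 times by limma with all arrays. Of all probe sets tested, 0.857%, 10.2%, 4.89% and 1.26% were called either way from 0.8 to 12 h. No call among 5 members is near these shares. Il6st and Il10rb fell at 3 h by 0.64 and 0.30 on the log2 scale without PBS 3 h replicate 4 and NmU 6 h replicate 4 (adjusted p = 0.0173 and 0.0167). The median log2 difference of the 5 was 0.18, -0.24, -0.03 and 0.13 from 0.8 to 12 h. Il6ra, the ligand-binding chain for IL-6, stayed below the filter with a highest signal of 32.1. Il6st, which encodes gp130, averaged 52.9 ± 13.0 with NmU (SD, n = 3) and 74.5 ± 13.4 with PBS (SD, n = 4) at 3 h, a log2 difference of -0.51 that did not pass with all arrays (adjusted p = 0.0613). Il10ra, the ligand-binding chain for IL-10, averaged 30.5 ± 9.29 with NmU and 25.0 ± 12.0 with PBS at 0.8 h (SD, n = 4 each, adjusted p = 0.953), near the filter. Il10rb, its partner chain, averaged 393.0 ± 19.7 with NmU and 423.5 ± 33.6 with PBS at 0.8 h (adjusted p = 0.917). Il27ra, a chain that also pairs with gp130, had a log2 difference of -0.24 at 3 h (adjusted p = 0.0997).

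Of 15 tested members of the JAK-STAT3 pathway and its inhibitors, 1, 3, 1 and 1 rose at 0.8, 3, 6 and 12 h and 0, 0, 1 and 1 fell, so most members were not called. Of all probe sets, 0.794%, 4.45%, 2.86% and 0.857% were called higher at these times, and 2.03% and 0.403% were called lower at 6 and 12 h. Without PBS 3 h replicate 4 and NmU 6 h replicate 4, 5 rose and 1 fell at 3 h, the added ones being Socs3 (0.61, adjusted p = 0.0389), Cish (0.42, adjusted p = 0.032) and, lower, Pias1 (-0.44, adjusted p = 0.0331). Arrays scaled to a common median left none called at 12 h. Their median log2 difference was 0.01, 0.18, -0.04 and 0.03, beside the medians over all probe sets given above. Stat3 and its feedback inhibitor Socs3 were not called at any time with all arrays. At 0.8 h Stat3 averaged 470.8 ± 80.2 with NmU and 355.2 ± 39.4 with PBS (adjusted p = 0.64), and Socs3 averaged 75.6 ± 15.0 with NmU and 54.8 ± 4.62 with PBS (SD, n = 4 each, adjusted p = 0.539). Cish, an inhibitor induced mainly by Stat5, rose at 0.8 h by 0.71 (adjusted p = 0.000776). Jak2 rose at 3 h, with 381.3 ± 10.7 with NmU (SD, n = 3) and 174.5 ± 31.6 with PBS (SD, n = 4), a log2 difference of 1.15 (adjusted p = 2.12e-05). Stat5a rose by 0.46 at 3 h (adjusted p = 0.000725). Jak1, a kinase of both cytokine receptors, fell at 6 h, with 406.5 ± 68.6 with NmU and 609.6 ± 32.1 with PBS (SD, n = 4 each), a log2 difference of -0.60 (adjusted p = 0.0177). The phosphatase gene Ptpn6 rose by 0.56, 0.66 and 0.53 at 3, 6 and 12 h. The 12 h calls of Jak1 (log2 difference -0.59) and Ptpn6 were lost with arrays scaled to a common median, with adjusted p of 0.141 and 0.0738.

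Of 14 tested genes on a list of Stat3 targets, 3, 2, 1 and 1 rose at 0.8, 3, 6 and 12 h, and 1 fell at 3 h, when 5.72% of all probe sets were called lower. The shares called higher among all probe sets were 0.794%, 4.45%, 2.86% and 0.857%. Their median log2 difference was 0.13 and 0.14 at 0.8 and 3 h and near 0 at 6 and 12 h. Junb and Fos, which are also early genes of many other signals, rose at 0.8 h by 1.14 and 4.15 (adjusted p = 1.71e-07 and 6.03e-07). Nfil3, a repressor of cytokine genes, rose by 0.43 at 0.8 h (adjusted p = 0.0168). Bcl6, a transcriptional repressor, rose at 3 h by 1.60 (adjusted p = 0.00443), and Myc rose at 12 h by 0.84 (adjusted p = 0.00315). Il4ra, the receptor for IL-4, fell at 3 h by 0.96 on the log2 scale (adjusted p = 0.000432), with 671.8 ± 59.4 with NmU (SD, n = 3) and 1338 ± 337 with PBS (SD, n = 4). Without PBS 3 h replicate 4 and NmU 6 h replicate 4, 5 of the 14 rose at 3 h, with Socs3, Myc and Fos added, and 2 rose and 1 fell at 6 h, with Myc (0.44, adjusted p = 0.0286) and, lower, Il4ra (-0.53, adjusted p = 0.0251) added. Arrays scaled to a common median gave 1 that rose at 3 h and none called at 6 h.

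A list of 35 genes held transcription factors known to act at Il6 or Il10 and the NF-kB inhibitor Nfkbia, and 29 of them were tested. Of these 9, 10, 2 and 1 rose at 0.8, 3, 6 and 12 h, the 1 at 12 h being Nfkbia (log2 difference 0.56, adjusted p = 0.0322), and 1, Irf4, fell at 3 h (log2 difference -0.64, adjusted p = 0.000688). Their median log2 difference was 0.19, 0.39, 0.13 and 0.05, beside -0.04, -0.03, 0.02 and -0.02 over all probe sets tested. Most of their calls were made at 0.8 and 3 h, when 0.794% and 4.45% of all probe sets were called higher. At 6 and 12 h 2.86% and 0.857% were called higher. At 3 h 5.72% were called lower, so 1 of 29 that fell is not above that share. Arrays scaled to a common median gave 9, 9, 2 and 0 that rose. Without PBS 3 h replicate 4 and NmU 6 h replicate 4, 12 rose and 2 fell at 3 h, and 4 rose and 1 fell at 6 h, with Nfkbia and Nfatc1 and, lower, Stat6 added at 6 h.

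The zinc finger factors Egr1 and Egr2 showed the largest differences among those named. Egr1 averaged 3500 ± 165 with NmU and 150.8 ± 34.5 with PBS at 0.8 h (SD, n = 4 each), a log2 difference of 4.57 (adjusted p = 1.01e-07), and rose by 1.59 at 3 h (adjusted p = 0.0329). Egr2 rose by 4.54, 2.15 and 1.63 at 0.8, 3 and 6 h (adjusted p = 1.8e-09, 0.000247 and 0.00461). The 6 h value of Egr2 leaned on NmU 6 h replicate 4, which gave 1705.4 beside 251.9, 277.0 and 304.4 on the other arrays, and was 0.97 without that array and PBS 3 h replicate 4 (adjusted p = 3.5e-05).

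The AP-1 members Fos, Junb and Fosl1 bind elements such as the one in the Il6 window above. Fos averaged 532.6 ± 46.6 with NmU and 30.4 ± 5.68 with PBS at 0.8 h (SD, n = 4 each), and had a log2 difference of 1.18 at 3 h that did not pass with all arrays (adjusted p = 0.123). Fos rose at 3 h by 1.21 (adjusted p = 0.000167) without PBS 3 h replicate 4 and NmU 6 h replicate 4. Fosl1 rose by 1.56, 1.58 and 1.41 at 0.8, 3 and 6 h (adjusted p = 1.58e-05, 1.81e-05 and 8.23e-05) and had a log2 difference of 0.48 at 12 h (adjusted p = 0.358). Junb also rose at 3 h by 0.39 (adjusted p = 0.0457), a call lost with arrays scaled to a common median (adjusted p = 0.0862). Crem, a factor that binds cyclic AMP response elements, rose by 0.71 and 1.34 at 0.8 and 3 h (adjusted p = 0.00022 and 1.44e-08). The factors of the marked elements did not all rise. Cebpb, Creb1 and Rela were not called at any time. Jun, Rel and Cebpd did not pass the filter, with highest signals of 16.1, 12.7 and 27.2.

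**Figure D5:**
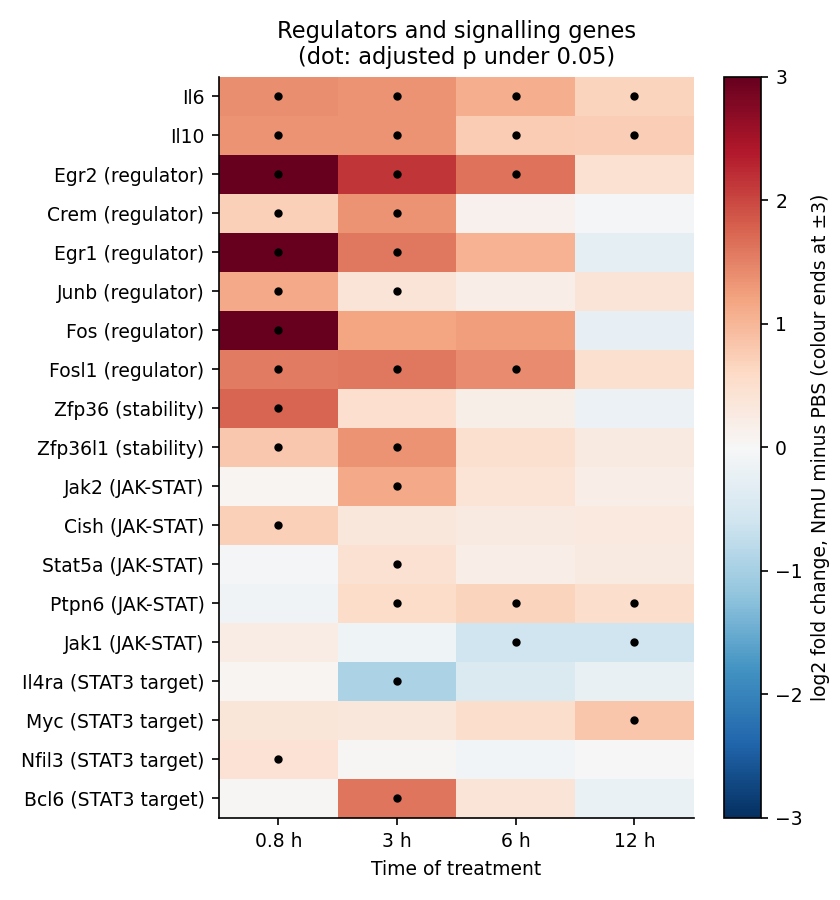
NmU minus PBS difference (log2 fold change, colour scale ending at ±3) of Il6, Il10 and the named regulators, transcript stability genes, JAK-STAT genes and Stat3 targets at 0.8, 3, 6 and 12 h; dots mark an adjusted p under 0.05. Il6 and Il10 carry a dot at all 4 times, whereas Egr1, Fos, Junb and Crem carry none after 3 h. Egr2 and Fosl1 also carry a dot at 6 h, Jak1 and Ptpn6 at 6 and 12 h, and Myc at 12 h.

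Cytokine transcripts, Il6 and Il10 among them, carry AU-rich elements that RNA-binding proteins use to control decay. Of 13 such regulators 8 were tested, of which 2 rose at 0.8 h, 1 rose at 3 h and none was called at 6 or 12 h by limma. Of all probe sets 0.794% and 4.45% were called higher at 0.8 and 3 h. The 3 h count was 2 with either other scaling, and also without PBS 3 h replicate 4 and NmU 6 h replicate 4, when Tial1 rose by 0.51 (adjusted p = 0.00552). Their median log2 difference was -0.02, 0.17, 0.11 and -0.03 from 0.8 to 12 h. Zfp36, which encodes the decay factor tristetraprolin, averaged 515.4 ± 65.1 with NmU and 152.2 ± 13.3 with PBS at 0.8 h (SD, n = 4 each), a log2 difference of 1.75 (adjusted p = 2.7e-08). Its paralogue Zfp36l1 rose by 0.81 at 0.8 h and by 1.35 at 3 h (adjusted p = 0.0324 and 5.65e-05). Zfp36 at 3 h had a log2 difference of 0.49 (adjusted p = 0.0648) and passed with arrays scaled to a common median (adjusted p = 0.0348).

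The genes whose signal followed Il6 and Il10 most closely were ranked by the Pearson correlation of log2 signal over the 31 arrays, among 5903 named genes. Nearest to Il6 were Phlda1 (r = 0.922), Fosl1 (0.902), Il4 (0.891), the chemokine Ccl7 (0.885) and Egr2 (0.877). Nearest to Il10 were Phlda1 (0.936), Ccl7 (0.926), Il4 (0.910), Il13 (0.886) and the growth factor Csf1 (0.880). NmU and PBS arrays lie in separate clusters, so the ranking describes the arrays together and carries no test. Within groups the same correlations were lower, at 0.333 for Phlda1 with Il6 and 0.549 for Phlda1 with Il10, and Ccl7 had 0.783 with Il10.

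Phlda1 rose by 1.11, 1.35 and 0.81 at 0.8, 3 and 6 h (adjusted p = 0.000114, 7.97e-06 and 0.00328), and at 12 h its log2 difference was 0.41 (adjusted p = 0.324). Csf1 rose by 0.82, 0.99 and 0.56 at the first 3 times, and at 12 h its log2 difference was 0.05 (adjusted p = 0.909). Il6 and Il10 were still called at 12 h, as were Il4 and Il13 among these nearest genes.

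The tested genes that lie within 5 genes of Il6 and Il10 were not called. Among all probe sets, 0.857%, 10.2%, 4.89% and 1.26% were called either way at 0.8, 3, 6 and 12 h. No call among 7 genes is near these shares. In the RefSeq order of protein-coding genes, 5 on each side, 2 neighbours of Il6 (Dnajb6 and Hadhb) and 5 neighbours of Il10 (Pigr, Mapkapk2, Eif2d, Rassf5 and Ikbke) were tested, and none of the 7 was called at any time by limma. The nearest to the threshold were Pigr, with a log2 difference of -0.47, Dnajb6, with 0.22, and Mapkapk2, with 0.43, all at 3 h (adjusted p = 0.050002, 0.0759 and 0.0764).

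Markers of macrophages, another cell source of both cytokines, were summed for each array. The sum over the 9 measured markers ran from 179.3 to 214.4 with NmU and from 183.0 to 231.7 with PBS at 0.8 h, when Il6 and Il10 differed most. At 6 h the sums were 185.5 to 223.4 with NmU and 158.6 to 173.5 with PBS, so these groups did not overlap. Of single probe sets tested, 6.56% had every NmU array above every PBS array at 6 h. The sums overlapped at 3 h, with 157 to 189.4 with NmU and 168.7 to 188.4 with PBS. They also overlapped at 12 h, with 184.3 to 209.9 with NmU and 147.7 to 266.5 with PBS. Cd68 rose at 6 and 12 h (log2 difference 0.54 and 0.61, adjusted p = 0.0369 and 0.0458), with signals of 25.0 to 56.2 over all arrays. No other tested macrophage marker was called higher at any time, nor was any tested marker of dendritic cells, B cells, mast cells, NK cells or fibroblasts. Of all probe sets, 0.794%, 4.45%, 2.86% and 0.857% were called higher at 0.8, 3, 6 and 12 h. No call among so few markers is near these shares, so little can be read from it. Lyz2, Adgre1, Itgam, Marco and Mrc1 were at or near the floor of 5.8. Whether macrophage transcripts had a part in the 6 and 12 h results was not tested.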

How the data were processed

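RNA of D10.G4.1 cells was hybridised to mouse arrays whose probe sets carry Affymetrix names, 1 array a sample. The values are the deposited intensities of the authors on a linear scale. How they were made is not given in the sources used here. The trimmed mean over probe sets, leaving out 2% at each end, lay between 150.0947 and 150.1133 on every array, so arrays had been scaled to one level, while medians ran from 34.4 to 43.3.

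Before taking log2, any signal below a floor of 5.8 (percentile 20 over the whole table) was raised to that floor. Probe sets were kept if their mean exceeded 20.2, the 40th percentile, in at least 1 group, which left 7931. One limma fit (version 3.58.1, R 4.3.3) gave each of the 8 groups a mean over all 31 arrays, with Benjamini-Hochberg adjustment over all probe sets kept and calls at an adjusted p under 0.05. Unless stated otherwise, adjusted p in the text is from this fit, and fold changes of dim genes are understated by the floor. Exact permutation tests used SciPy 1.17.1. The fit was tested on simulated data.

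Of the probe sets that are not array controls, 10833 had 1 symbol, 396 several and 1193 none in the platform's annotation, which can be old. A gene with several probe sets was read from the one with the highest mean. Named genes were all members, those called at any time on each list (up to 6, by lowest p), and the 5 most correlated with Il6 and with Il10. Other genes and single arrays were named after their values were seen. The members and lists were chosen with earlier results of these data known.

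Replicate numbers were checked as pairs: 5 of 15 pairs of NmU and PBS arrays with the same number had deviations correlated over 0.1 (range -0.224 to 0.204), so the numbers were not treated as pairs. Alternatives tried were other scalings, floors, filters, fits, array weights, replicate blocks and leaving out arrays.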

Additional observations from a re-analysis of the deposited data

Results flagged for a closer look

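The size of the NmU effect differed between the 4 times for Il6 (limma F test, adjusted p = 0.0308) and for Il10 (adjusted p = 0.0215). The Il6 effect at 12 h differed from that at 0.8 h by a log2 value of -0.74 (adjusted p = 0.032). This call was lost with arrays scaled to a common median (adjusted p = 0.0512) and when any of 11 of the 31 arrays was left out (adjusted p up to 0.089), and the Il6 F test was lost without any of 6 arrays (up to 0.078). Further settings are given with the processing. Within 1 group, the Il10 signal of PBS 6 h replicate 3, 1429.9, lay far below the 3 others of that group, which read 1651.3 to 1682.7. No other array stood out in this way among 21 readings, which took each group of 4 arrays with each of the 3 probe sets. The readings share arrays, and 2 of the probe sets share the transcript, so they are not 21 separate groups. Chance marks about 1 separate group in 20. On PBS 6 h replicate 3 the Il10 control probe set did not stand apart, with 1023.3 beside 1026.4 on PBS 6 h replicate 4. With PBS 6 h replicate 3 included, the NmU and PBS arrays at 6 h did not overlap for Il10.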

How the results depend on the processing

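The NmU effects on Il6 and on Il10 (100319_at) were positive in all 100 fits under the other settings, and called in 99. The exception was Il6 at 12 h with only the groups compared (0.66, adjusted p = 0.0619). That setting called 211, 219 and 65 probe sets at 3, 6 and 12 h, and array weights 110 at 0.8 h and 678 at 6 h, beside 68, 807, 388 and 100 at 0.8, 3, 6 and 12 h in the results given. Scaling to a common median turned the calls at 3 h to 323 higher and 266 lower (353 and 454 as given), at 6 h to 116 and 178 (227 and 161) and at 12 h to 64 and 14 (68 and 32), and only the groups compared made 63.0% of the 3 h calls higher.

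The replicate block changed no call of the NmU effect of Il6 or Il10 (100319_at) at a single time. The Il6 change from 0.8 to 12 h (-0.74) lost its call with the replicate block within times (adjusted p = 0.126; F test 0.121) and with the block over all times (0.0568; F test 0.0524), and with a common median (-0.77, 0.0512). The Il10 change passed with quantile normalization (-0.69, 0.0479), and at -0.63 with the block within times (0.0401), with trend and robust eBayes (0.0431) and without PBS 3 h replicate 4 and NmU 6 h replicate 4 (0.0334). The Il10 change from 6 to 12 h, -0.03, became 0.11 with a common median and 0.012 without those arrays.

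The control probe set at 12 h passed with a common median (0.70, adjusted p = 0.0186), log2(value + 16) (0.64, 0.0408), array weights (0.66, 0.00642), and at 0.65 with only the groups compared (0.032), the block within times (0.0234), trend and robust eBayes (0.0261) and without both arrays (0.00298). Its change from 0.8 to 12 h passed in the same settings except log2(value + 16), at -0.91 with a common median, -0.81 with weights and -0.88 in the others. Its F test passed at 0.0244 (common median), 0.0462 (log2(value + 16)), 0.0141 (weights), 0.0301 (trend and robust) and 0.00678 (without both arrays). With it in place of 100319_at the Il6 minus Il10 value was -0.13, -0.10 and 0.013 at 0.8, 3 and 12 h. The cause of these differences was not tested.

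With each array left out in turn, values ran as follows. Il6 changed from 0.8 to 3 h by -0.12 to 0.051 and from 0.8 to 12 h by -0.81 to -0.63, with F test adjusted p of 0.0159 to 0.078. Il10 changed by -0.13 to 0.11 (0.8 to 3 h), -0.063 to 0.029 (6 to 12 h) and -0.71 to -0.50 (0.8 to 12 h). The control probe set at 12 h was 0.60 to 0.72, its changes -0.30 to 0.093 (0.8 to 3 h) and -0.97 to -0.76 (0.8 to 12 h) and its F test 0.0171 to 0.116. Calls numbered 240 to 501 at 6 h, lowest without NmU 6 h replicate 3 and also low without NmU 6 h replicate 1 (255) or PBS 6 h replicate 1 (249), and 66 to 126 at 12 h, lowest without NmU 12 h replicate 3. The Il6 minus Il10 value was -0.046 to 0.17 at 0.8 h, -0.12 to 0.059 at 3 h and -0.12 to 0.025 at 12 h. Signals near the floor, as for Il10ra, limit what can be seen.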

Other observations

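Among the 5903 named genes, the lowest correlation with Il6 was that of Ddit4, a stress-induced inhibitor of mTOR signalling (r = -0.759 over 31 arrays, 0.2 within groups). Ddit4 fell by 0.67, 0.88 and 1.11 on the log2 scale at 0.8, 3 and 6 h (limma adjusted p = 0.00267, 5.65e-05 and 1.84e-06), and at 12 h its log2 difference was -0.08 (adjusted p = 0.863). The 0.8 h call was lost with arrays scaled to a common median (adjusted p = 0.0501).

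Among markers of Th2 cells that are not cytokines, the chemokine receptor Ccr8 rose at 0.8 and 3 h by 1.10 and 1.03 (adjusted p = 0.00269 and 0.00258), and its log2 difference was -0.12 and -0.49 at 6 and 12 h (adjusted p = 0.823 and 0.348). Gata3 rose at 3 h by 0.43 (adjusted p = 0.0112) and Maf, a factor known to act at Il10, was not called at any time. The chemokine receptor Ccr4, also a Th2 marker, did not pass the filter, with a highest signal of 9.8. Nfatc1, which encodes an NFAT factor, rose at 3 h by 1.08 (adjusted p = 0.000187), with signals of 157.1 to 215.2 with NmU and 74.0 to 112.6 with PBS. Relb rose at 0.8 and 3 h by 0.69 and 1.07 (adjusted p = 0.0084 and 2.12e-05), and Nfkbia, the inhibitor of NF-kB, at 3 and 12 h by 0.93 and 0.56 (adjusted p = 6.8e-05 and 0.0322).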
